A study of Rattus norvegicus with 12 samples.

Results

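The proteasome genes were taken as every gene symbol of the count table that reads Psm, a letter from a to g and a number. They cover the subunits of the proteasome, its activators and its assembly chaperones. Of 34034 symbols, 48 matched, and 46 of these had a read count, scaled to the library's total (CPM), of more than 1 in at least 2 of the 12 libraries. Psmb11, the catalytic subunit of the thymus, held 0 to 3 counts per library and 8 in all, in 5 libraries, and Psma8, the α-ring subunit of the testis, held 0 counts in every library. Both stay outside the comparisons. The 5 immune members Psmb8, Psmb9, Psmb10, Psme1 and Psme2 were set against the 41 other members.

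The proteasome is the barrel-shaped protease that degrades proteins marked with ubiquitin. Its 20S core stacks rings of α subunits, which gate the entrance, and rings of β subunits, of which Psmb5, Psmb6 and Psmb7 carry the catalytic sites. The 19S cap, built of the Psmc ATPases and most of the Psmd subunits, binds and unfolds the substrate. In cells exposed to interferon-γ, newly built cores can take up the immune catalytic subunits Psmb8, Psmb9 and Psmb10 in place of Psmb5, Psmb6 and Psmb7, and the activator PA28αβ, made of Psme1 and Psme2, can cap the core. Such immunoproteasomes are known for cutting peptides that are then presented on MHC class I molecules, a route by which β-cells become visible to T cells.

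RNA came from INS-1E cells, an established rat insulinoma line used as a β-cell model, wild type in every group, grown as a single line without other islet cells. The groups of 3 biological replicates each were untreated cells, cells given IL-1β at 10 pg/ml for 72 h (IL-1βlow), cells given IL-1β at 100 pg/ml with IFN-γ at 5 ng/ml for 16 h (CYT), and cells given IL-1βlow first and then CYT (IL-1βlow + CYT). The comparisons ask how the proteasome genes respond to the inflammatory challenge, to the low dose alone, and to the challenge after the low dose. IFN-γ was never given without IL-1β, so the parts of the CYT mixture cannot be told apart.

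Total counts ran from 15812640 to 20246806 per library (median 17461925.5), and 14324 genes passed the filter on low counts. The defining β-cell genes were present in every library, with Ins1 at 6584 CPM or more, except G6pc2, which held 0 to 4 counts. Their levels differed between groups. With CYT, Ins1, Ins2, Iapp, Pdx1, Nkx6-1, Mafa and Slc30a8 fell, with log2 fold changes from -0.94 (Slc30a8) to -2.64 (Ins2), while Slc2a2 changed little (-0.13). Ins2 was also lower with IL-1βlow alone (-0.73). Of 12 markers of other cells, 10 stayed under 2 CPM in every library, with a highest value of 1.19 CPM, and 3 had no count at all, among them the leukocyte genes Ptprc and Itgam. The other 2 were Gcg, an islet hormone gene, and Pdgfra. Gcg was at 192 to 359 CPM in untreated and 23.4 to 62.8 CPM in CYT libraries, and Pdgfra at 11.8 to 15.7 and 5.02 to 6.62 CPM. The summed level of the 12 markers was 208 to 376 CPM in untreated, 166 to 279 in IL-1βlow, 30.3 to 70.5 in CYT and 81.5 to 161 in IL-1βlow + CYT libraries. Without Gcg and Pdgfra the sum was 0.466 to 2.21 CPM over all libraries. The part of these markers in the results was not tested.

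The promoters of the immune members are shown first, because these members rose with CYT and interferon-induced genes often carry a motif for interferon regulatory factors (IRF). RefSeq promoters of the assembly GRCr8, 250 bases before to 50 after the start of a gene, were matched for 42 of the 46 members. The motifs searched on both strands were GAAANNGAAA for IRF, TTCNNNGAA for the gamma-activated site, GGGNNTTNCC for NF-κB and TGACNNNGC for the antioxidant response element. The IRF-type motif was found in 3 of 5 immune promoters and in 4 of 37 other promoters (Psma4, Psmb3, Psmd7 and Psmg4), and in 2.94% of the 12633 promoters of genes over the filter and 3.92% of all 33469 promoters. The gamma-activated site was found in 1 of 5 immune and 3 of 37 other promoters, against 7.08% of the promoters of genes over the filter. The NF-κB motif was found in 0 of 5 and 3 of 37, against 5.45%, and the antioxidant response element in 0 of 5 and 8 of 37, against 14.1%. Matches in the members did not overlap each other. A match is a string of letters in this window, not a site shown to be bound.

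The 80 bases printed here, read 5′ to 3′ along the gene with matches to these motifs in capitals, end just before the start of the gene, except for Psmb8, where they end at base 6 of the gene so that the match is whole. The immune members come first, then the catalytic subunits that they replace.
Psmb8 (chr20:4657026-4657105, minus strand): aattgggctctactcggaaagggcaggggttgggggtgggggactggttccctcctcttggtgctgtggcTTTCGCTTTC
Psmb9 (chr20:4668920-4668999, plus strand): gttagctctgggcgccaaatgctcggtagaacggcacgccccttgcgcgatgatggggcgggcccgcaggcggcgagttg
Psmb10 (chr19:50743293-50743372, minus strand): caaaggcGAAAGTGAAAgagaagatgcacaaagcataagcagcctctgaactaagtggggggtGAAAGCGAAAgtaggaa
Psme1 (chr15:33038891-33038970, plus strand): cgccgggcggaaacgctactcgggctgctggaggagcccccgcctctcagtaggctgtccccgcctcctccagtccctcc
Psme2 (chr15:33052752-33052831, minus strand): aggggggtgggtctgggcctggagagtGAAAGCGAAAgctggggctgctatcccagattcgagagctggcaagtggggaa
Psmb5 (chr15:32047380-32047459, minus strand): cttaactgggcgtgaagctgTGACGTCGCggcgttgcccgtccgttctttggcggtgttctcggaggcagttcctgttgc
Psmb6 (chr10:55737808-55737887, plus strand): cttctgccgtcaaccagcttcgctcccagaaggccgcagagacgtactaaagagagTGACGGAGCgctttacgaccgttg
Psmb7 (chr3:42827471-42827550, minus strand): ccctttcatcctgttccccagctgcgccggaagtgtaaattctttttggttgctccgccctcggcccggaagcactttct

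The capitals in Psmb8, Psmb10 and Psme2 are IRF-type matches, 1 each in Psmb8 and Psme2 and 2 in Psmb10. Those in Psmb5 and Psmb6 are matches to the antioxidant response element, and none of these motifs occurs in the windows of Psmb9, Psme1 and Psmb7. In the same assembly Psmb8 lies between Tap2 and Tap1, and Psmb9 follows Tap1, so the pair sits beside the genes of the peptide transporter that feeds MHC class I molecules. Psme1 and Psme2 lie on either side of Emc9, which Psme1 overlaps. In all, 12 of the 46 members overlap another annotated gene (Psma1, Psmb1, Psmb2, Psmc1, Psmc5, Psmc6, Psmd1, Psmd14, Psmd5, Psmd8, Psme1 and Psmf1), and since the strand setting of the counting is not given in the sources used here, their values are uncertain.

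CYT raised all 5 immune members, by 2.51-fold to 12.01-fold over untreated cells, and no other member changed as much in either direction. Psmb8, which replaces Psmb5, stood at 16.8, 16.9 and 17.8 CPM in the untreated libraries and at 181, 221 and 216 CPM in the CYT libraries. Its log2 fold change was 3.59 (standard error, SE, 0.12; adjusted p = 1.9e-11). Every adjusted p given here comes from the quasi-likelihood F test of edgeR, corrected over all genes by the method of Benjamini and Hochberg. Psmb9, which replaces Psmb6, rose from 13.6, 13.8 and 11.9 CPM to 123, 135 and 129.6 CPM, a log2 fold change of 3.30 (SE 0.14). The lowest CYT library was thus far above the highest untreated library for both genes. In bulk RNA, a change in the share of cells that express a gene and a change in the RNA per cell cannot be told apart.

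Psmb10, the substitute for Psmb7, was at 30.3, 38.4 and 31.5 CPM in untreated and at 151, 169.8 and 138 CPM in CYT libraries, a log2 fold change of 2.19 (SE 0.14). Psme1, the α subunit of PA28, went from 46.1, 49.5 and 42.8 CPM to 157, 161 and 148 CPM, a log2 fold change of 1.75 (SE 0.11). Its partner Psme2, the β subunit, was the immune member with the smallest response, from 5.10, 4.85 and 5.23 CPM to 11.1, 13.2 and 13.8 CPM, a log2 fold change of 1.33 (SE 0.14). Untreated and CYT libraries did not overlap for any of the 5 genes. The share of all tested genes without overlap was not counted, here or for the groups compared below.

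**Figure D1:**
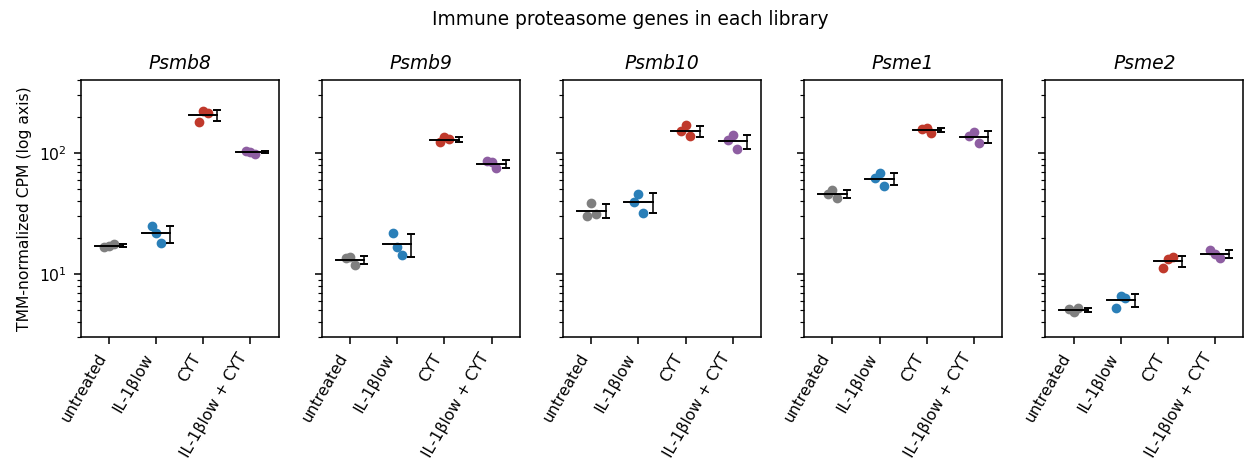
TMM-normalized CPM (log axis) of the 5 immune members in each of the 12 libraries, one panel per gene; points are libraries, the horizontal line is the group mean and the bar beside it 1 SD (n = 3). CYT and IL-1βlow + CYT libraries lie above untreated libraries for every gene, and IL-1βlow + CYT lies under CYT without overlap for Psmb8 and Psmb9 alone.

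The constitutive catalytic subunits moved little beside these. Psmb5, which carries the chymotrypsin-like site, was at 94.2, 93.7 and 91.1 CPM in untreated and at 87.4, 93.5 and 69.2 CPM in CYT libraries, and its log2 fold change of -0.16 did not pass (edgeR-adjusted p = 0.29, 95% interval -0.43 to 0.11). Psmb6, with the caspase-like site, stood at 25.6, 32.6 and 30.4 against 40.6, 40.4 and 32.5 CPM (log2 fold change 0.36, edgeR-adjusted p = 0.043, over the threshold of 0.01). Psmb7, with the trypsin-like site, rose from 197, 209.7 and 197 to 256, 286 and 269 CPM, a log2 fold change of 0.42 (SE 0.09). Psme3, which forms the nuclear activator PA28γ and is not part of the immunoproteasome, had a log2 fold change of -0.00108 (95% interval -0.15 to 0.15), whose sign changed with other scalings and in other fits.

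Of the 46 members, 14 rose with CYT at an adjusted p under 0.01 and 5 fell, where 25.2% of all tested genes rose and 24.5% fell. Apart from the 5 immune members, 9 of 41 rose. With the further fold change minimum used by the study (an absolute log2 fold change above 1), the 5 immune members remained and no other member did, where 10.0% of all genes passed as higher. The median log2 fold change was 2.19 over the immune members, -0.01 over the 41 others and -0.04 over all tested genes. The summed CPM of the immune members went from 115 ± 7.62 (SD, n = 3) in untreated to 656 ± 39.9 in CYT cells, and that of the others from 5426 ± 235 to 5551 ± 271. The immune members thus supplied 2.07% ± 0.07 of all proteasome reads in untreated cells and 10.6% ± 0.49 in CYT cells. Reads were not scaled by transcript length here, so these shares follow changes between groups and are not shares of molecules.

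Among the 41 others, the inhibitor of the 20S core Psmf1 (PI31) rose most, from 79.3, 87.6 and 83.9 CPM to 142, 161 and 155 CPM, a log2 fold change of 0.87 (SE 0.09, edgeR-adjusted p = 2.3e-06). Psmg2, a chaperone of α-ring assembly, rose from 16.2, 16.1 and 17.8 to 23.7, 27.0 and 26.7 CPM, a log2 fold change of 0.63 (SE 0.12). Psmd10 (gankyrin), a chaperone of the 19S base, rose from 11.7, 10.4 and 8.33 to 13.3, 14.1 and 17.1 CPM, a log2 fold change of 0.55 (SE 0.16). The untreated and CYT libraries of these 3 genes did not overlap. Psmd10 lost its call with any of 5 single libraries left out (untreated replicate 2 or 3, CYT replicate 2 or 3, or IL-1βlow + CYT replicate 2), with edgeR-adjusted p from 0.011 to 0.046, and also with scaling by total counts.

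The largest fall was that of Psma3, an α-ring subunit, from 22.7, 21.8 and 17.0 CPM to 11.8, 8.57 and 14.3 CPM, a log2 fold change of -0.82 (SE 0.19, edgeR-adjusted p = 2.0e-03). Psma3 is uncertain, because the counts also hold a pseudogene, Psma3-ps1, with 20 to 102 counts per library, that may share its reads. Their sequences were not compared. The sum of both was 19.8 to 28.5 CPM in untreated and 10.7 to 18.5 CPM in CYT libraries, again without overlap. Psme4 (PA200), the activator of the nucleus and of spermatids, fell from 131, 135 and 129 to 79.6, 62.1 and 86.0 CPM, a log2 fold change of -0.79 (SE 0.18). Psmd1, the large scaffold subunit of the 19S base, fell from 129, 149.6 and 138 to 102, 87.3 and 108 CPM, a log2 fold change of -0.49 (SE 0.09). The other 2 that fell were the 19S chaperone Psmd5, with a log2 fold change of -0.34, and the lid subunit Psmd12, with -0.28. Without CYT replicate 2, only Psmd1 and Psmd5 of these 5 passed, and without untreated replicate 2 only Psmd1, Psmd5 and Psme4. Psma3 lost its call without untreated replicate 1 as well, at an edgeR-adjusted p of 0.013, and Psmd12 without IL-1βlow replicate 1, CYT replicate 1 or CYT replicate 3, and with RLE scaling.

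By role, the α ring had 1 rise (Psma6, log2 fold change 0.45) and 1 fall among 7 tested genes, and the non-catalytic β subunits had 1 rise (Psmb1, 0.30) among 4. Of the 6 19S ATPases only Psmc2 rose (0.31), and of the 11 other 19S subunits Psmd4, a receptor for ubiquitin chains, rose (0.47) while Psmd1 and Psmd12 fell. All 3 chaperones of the 19S base passed, Psmd9 (0.40) and Psmd10 upward and Psmd5 downward, and of the 4 chaperones of the 20S core only Psmg2 did. Log2 fold changes of the 41 others spanned -0.82 to 0.87, and the smallest of the immune members, 1.33, lay above this range.

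**Figure D2:**
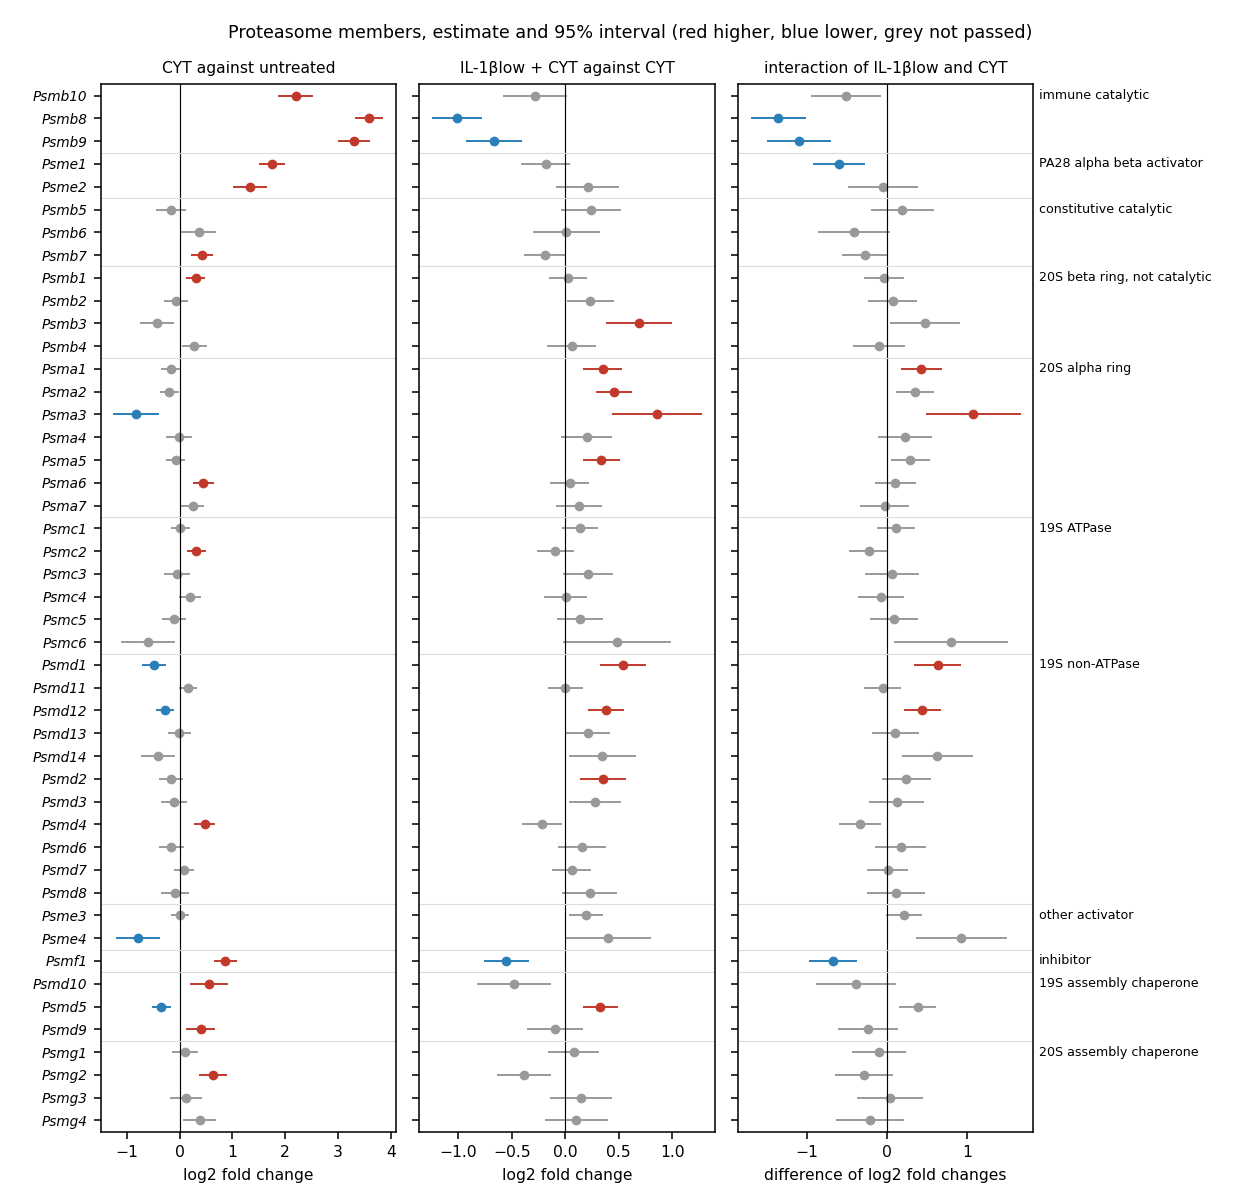
Log2 fold change of each of the 46 members, by role, for CYT against untreated (left) and IL-1βlow + CYT against CYT (middle), and the interaction, the difference of the log2 fold changes with CYT in cells with and without IL-1βlow (right); bars are 95% intervals of the quasi-likelihood fit and the axes of the panels differ in scale. Red and blue mark members higher and lower at an adjusted p under 0.01, and the 5 immune members stand apart on the left, between 1.33 and 3.59.

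After IL-1βlow alone, no proteasome gene changed at an adjusted p under 0.01, in edgeR's quasi-likelihood test or in DESeq2 or edgeR's exact test, where few of all tested genes did, 0.321% higher and 0.182% lower. At an unadjusted p under 0.05, 5 members were higher and 1 lower, where 1010 of all 14324 tested genes were higher and 972 lower. The immune members had log2 fold changes of 0.43 for Psmb9, 0.41 for Psme1, 0.34 for Psmb8, 0.25 for Psme2 and 0.23 for Psmb10, with a median of 0.34 against 0.06 for the 41 others and 0.00438 for all tested genes. Psme1 was nearest to the threshold (adjusted p = 0.079, 95% interval 0.18 to 0.63). It stood at 62.6, 67.8 and 53.4 CPM in IL-1βlow libraries, all above the untreated ones. Psmb8 was at 25.0, 21.9 and 18.1 CPM and Psmb9 at 21.8, 16.7 and 14.3 CPM, in both cases also above every untreated library. Neither passed (edgeR-adjusted p = 0.21 and 0.17), and how many of all tested genes lay apart in this way was not counted. Psmb10, at 39.4, 46.2 and 31.8 CPM, overlapped the untreated range. Psme4 had the lowest estimate, a log2 fold change of -0.53 (edgeR-adjusted p = 0.21), with 82.8, 77.3 and 114 CPM. Without the filter on low counts Psme1 passed as higher and Psme4 as lower, and with the replicate number as a block Psme1 passed as higher.

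Cells that had IL-1βlow before CYT held less Psmb8 and Psmb9 RNA than cells given CYT alone, while the rest of the immune members did not pass in the main fit. Psmb8 was at 104, 103 and 99.1 CPM in IL-1βlow + CYT libraries, all below the lowest CYT library at 181 CPM. Its log2 fold change between these groups was -1.01 (SE 0.10, edgeR-adjusted p = 3.0e-06), to 0.495 of the CYT level. Psmb9 was at 85.7, 83.7 and 74.5 CPM, against 123 CPM or more in CYT libraries, a log2 fold change of -0.67 (SE 0.12, edgeR-adjusted p = 3.7e-04). Psmb8 was the only member past the study's fold change minimum. Left-out libraries moved these 2 log2 fold changes between -1.13 and -0.96 for Psmb8 and between -0.74 and -0.61 for Psmb9, always past the threshold.

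The other immune members lay closer to their CYT levels. Psmb10 was at 127, 141 and 108 CPM, a log2 fold change of -0.28 (edgeR-adjusted p = 0.097, 95% interval -0.57 to 0.01). Psme1 was at 139, 150.0 and 121 CPM, a log2 fold change of -0.18 (95% interval -0.40 to 0.03), and Psme2 at 15.9, 14.7 and 13.6 CPM, a log2 fold change of 0.21 (95% interval -0.07 to 0.50). The IL-1βlow + CYT and CYT libraries overlapped for Psmb10, Psme1 and Psme2. In a fit with the replicate number as a block, Psmb10 passed as lower. The intervals of Psme1 and Psme2 do not overlap those of Psmb8 (-1.24 to -0.79) and Psmb9 (-0.92 to -0.41), although those of Psme1 and Psmb9 nearly meet. The interval of Psmb10 overlaps that of Psmb9. The log2 ratio of Psmb8 to Psme2 within a library, a contrast added after the values were seen, was 4.02, 4.06 and 3.97 in CYT and 2.71, 2.81 and 2.87 in IL-1βlow + CYT libraries, a difference of -1.22 (exact permutation test, two-sided, p = 0.1, the smallest that 3 against 3 libraries allow).

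In all, 3 members were lower in IL-1βlow + CYT than in CYT cells (19.2% of all genes; 5.92% with the fold change minimum), and 9 were higher (17.1% of all genes). The third lower gene was Psmf1, at 109.5, 112 and 90.8 CPM, a log2 fold change of -0.55 (SE 0.09, edgeR-adjusted p = 2.5e-04), which lay between the untreated and the CYT range. Without IL-1βlow replicate 2, 5 members were lower, with Psmd10 and Psmg2 added. The median log2 fold change was -0.28 over the immune members, 0.16 over the 41 others and 0.02 over all tested genes. Of the 41, 34 were above 0, beside 7406 of all 14324 tested genes. Whether the 41 moved together was not tested. In summed CPM, the others stood at 6209 ± 424 (SD, n = 3) and the immune members at 460.3 ± 39.4, which was 6.90% ± 0.13 of the proteasome reads.

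The 9 members that were higher belong to the α ring (Psma1, Psma2, Psma3 and Psma5), the β ring (Psmb3) and the 19S cap with its chaperone (Psmd1, Psmd2, Psmd12 and Psmd5). Psma3 was at 20.1, 18.0 and 24.9 CPM, above every CYT library, a log2 fold change of 0.86 (SE 0.19, edgeR-adjusted p = 2.1e-03). Psmb3, a structural β subunit, was at 168, 164 and 135 CPM against 114, 105 and 71.3 CPM, a log2 fold change of 0.69 (SE 0.14). Psmd1 was at 131, 146 and 156 CPM, a log2 fold change of 0.54 (SE 0.09), with 2 of 3 libraries inside its untreated range. Neither Psma3 nor Psmb3 overlapped between these groups. The log2 fold changes of the other 6 ran from 0.33 (Psmd5) to 0.46 (Psma2). The number of members that passed as higher fell to 5 (Psma2, Psma3, Psmb3, Psmd1 and Psmd12) without IL-1βlow + CYT replicate 1, and to the same 5 with only these 2 groups in the fit. Psma3 itself did not pass without CYT replicate 2 (edgeR-adjusted p = 0.011).

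**Figure D3:**
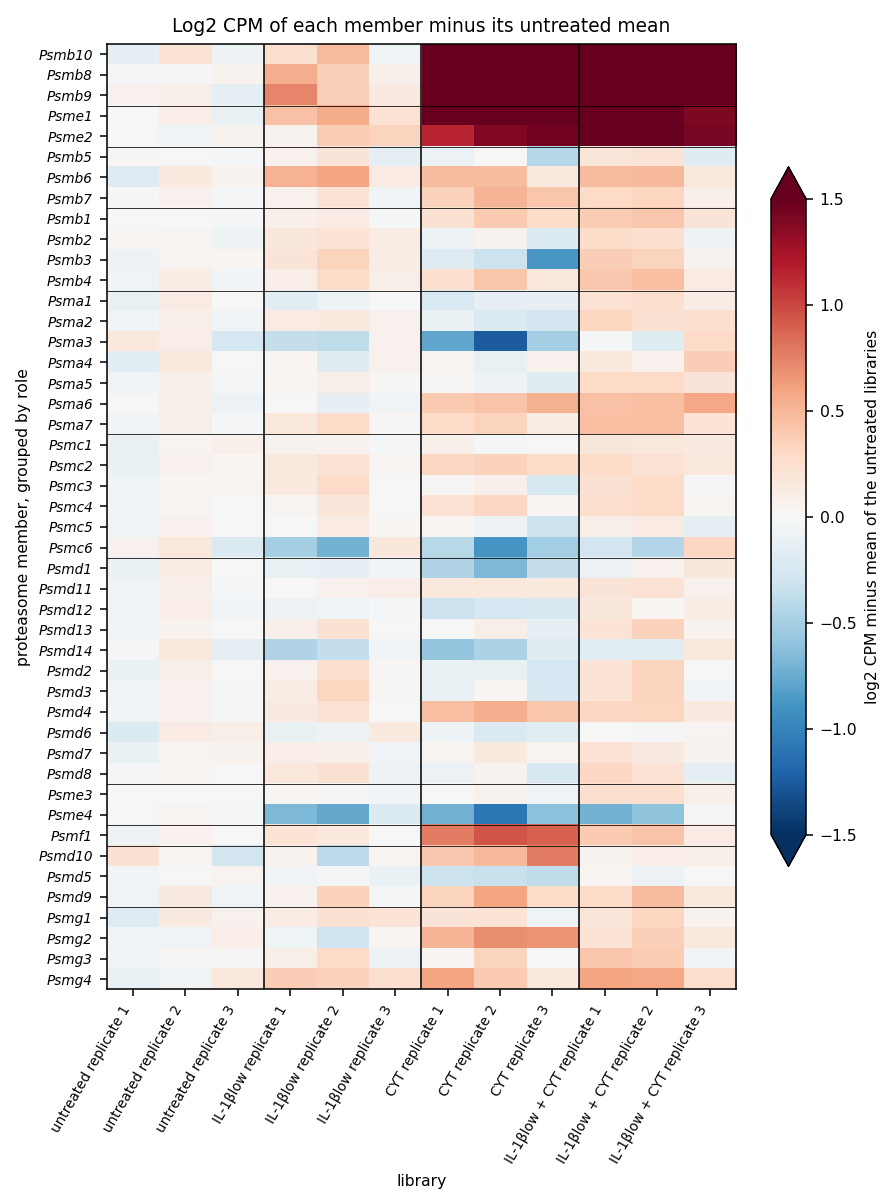
Each of the 46 members (rows, grouped by role) in each of the 12 libraries (columns), coloured by log2 CPM minus the gene's mean over the untreated libraries; the colour scale ends at 1.5 in either direction and larger values take the end colour. The 5 immune members are raised in all CYT and IL-1βlow + CYT libraries, and Psma3, Psmc6 and Psme4 vary between replicates of a group.

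Against untreated cells, IL-1βlow + CYT cells still held more of all 5 immune members. The log2 fold changes were 2.63 for Psmb9, 2.57 for Psmb8, 1.91 for Psmb10, 1.57 for Psme1 and 1.54 for Psme2, each past the study's fold change minimum (3.85% of all genes). The log2 fold changes for CYT alone, from the same untreated libraries, were 3.30, 3.59, 2.19, 1.75 and 1.33 in that order. Psmb8 ranked above Psmb9 with CYT alone and just under it with IL-1βlow + CYT, where their estimates differed by less than their SEs (0.12 and 0.13). The other members that rose were Psma6 (log2 fold change 0.49) and Psmb1 (0.33), which made 7 in all, where 8.24% of all genes rose.

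Psma6 was at 83.1, 83.8 and 91.8 CPM in IL-1βlow + CYT libraries and 61.7, 64.9 and 57.6 CPM in untreated ones, without overlap. Psmb1 was at 283, 289 and 249 against 219, 219 and 216 CPM, and its call was lost with any of 7 single libraries left out (edgeR-adjusted p from 0.011 to 0.040). Without IL-1βlow + CYT replicate 3, 11 members passed as higher. No member was lower (5.53% of all genes), in the quasi-likelihood test or in DESeq2. At an unadjusted p under 0.05, 1 member was lower, beside 2311 of all 14324 tested genes. Without IL-1βlow + CYT replicate 3 this 1 gene, Psme4, passed as lower. Psme4 was at 80.7 and 86.4 CPM in the first replicates and at 134 CPM in replicate 3, which lay in its untreated range. The median log2 fold change of the 41 others was 0.19, against -0.00498 for all tested genes. Of the 41, 36 were above 0, of which 2 passed, beside 7076 above 0 among all 14324 tested genes. A shared shift of the 41 was not tested here either.

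The interaction asks whether CYT moved a gene by a different amount in cells with and without IL-1βlow, and is given as the difference of both log2 fold changes. It was negative and passed for 4 members (12.5% of all genes), Psmb8 at -1.35 (SE 0.16, edgeR-adjusted p = 2.5e-05), Psmb9 at -1.10 (SE 0.18), Psmf1 at -0.67 (SE 0.13) and Psme1 at -0.59 (SE 0.15). Psmb10 had an estimate of -0.51 that missed the threshold (edgeR-adjusted p = 0.056, 95% interval -0.93 to -0.09). It passed without a filter on low counts, and also with the replicate number as a block. Psme2 had an estimate of -0.04 (95% interval -0.47 to 0.38). The rise of Psmb8, Psmb9 and Psme1 with CYT was therefore smaller after IL-1βlow, where these genes also began from higher estimates. For Psme2 no difference was detectable. Its interval lies apart from those of Psmb8 (-1.69 to -1.02) and Psmb9 (-1.48 to -0.71). It overlaps that of Psme1 (-0.91 to -0.28), so these values do not set Psme1 and Psme2 apart. Psme1 lost its call without untreated replicate 1 or 3, IL-1βlow replicate 1 or 2, or CYT replicate 2 (adjusted p from 0.011 to 0.019), and Psmb8, Psmb9 and Psmf1 passed without any 1 library.

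The interaction was positive and passed for 4 members (10.1% of all genes), Psma3 at 1.08, Psmd1 at 0.63, Psmd12 at 0.44 and Psma1 at 0.43. Psmd12 was at 123, 138 and 125 CPM in untreated, 122, 123 and 126 in IL-1βlow, 103, 107 and 109 in CYT and 145, 132 and 139 in IL-1βlow + CYT libraries. Psma1 was at 195, 229 and 209.7 CPM in untreated, 188, 199 and 212 in IL-1βlow, 181, 194 and 194 in CYT and 245, 251 and 228 in IL-1βlow + CYT libraries. For both genes the CYT group held the lowest mean and the IL-1βlow + CYT group the highest. These 4 calls rested on single libraries. None of the members passed as higher without untreated replicate 2, IL-1βlow replicate 1 or IL-1βlow replicate 2, 1 did without CYT replicate 1, 2 did without CYT replicate 2 or without IL-1βlow + CYT replicate 1, and 7 did without IL-1βlow replicate 3.

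The immune catalytic members were also set against the subunits they replace, and Psme1 against the nuclear activator gene Psme3. These were log2 ratios within each library, which no library scaling can change. The ratio of Psmb8 to Psmb5 was -2.49, -2.47 and -2.36 in untreated, -1.96, -2.29 and -2.23 in IL-1βlow, 1.05, 1.24 and 1.64 in CYT and -0.02, -0.06 and 0.27 in IL-1βlow + CYT libraries. It rose by 3.75 with CYT, and the difference between IL-1βlow + CYT and CYT was -1.25. Psmb9 to Psmb6 rose by 2.94 with CYT and differed by -0.68 between IL-1βlow + CYT and CYT, and Psme1 to Psme3 by 1.75 and -0.38. The groups did not overlap in these 6 contrasts, each with p = 0.1 in a two-sided exact permutation test, the smallest that 3 against 3 libraries allow (0.13 with Benjamini-Hochberg adjustment over 13 ratios tested). Between IL-1βlow + CYT and CYT, Psme3 itself had a log2 fold change of 0.19, beside the -0.18 of Psme1, and neither passed.

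Psmb10 to Psmb7 rose by 1.77 with CYT, without overlap, but was -0.76, -0.75 and -0.96 in CYT and -0.96, -0.83 and -0.97 in IL-1βlow + CYT libraries, which overlap (difference -0.09, exact permutation test, p = 0.3). With IL-1βlow alone the difference was 0.28 for Psmb8 to Psmb5 and 0.42 for Psme1 to Psme3, both without overlap, and 0.14 for Psmb10 to Psmb7 and -0.00 for Psmb9 to Psmb6, both with overlap. With IL-1βlow alone Psmb6 itself had a log2 fold change of 0.42, near the 0.43 of Psmb9, and neither passed. Levels of different genes cannot be ranked by these ratios, since transcript lengths enter them.

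**Figure D4:**
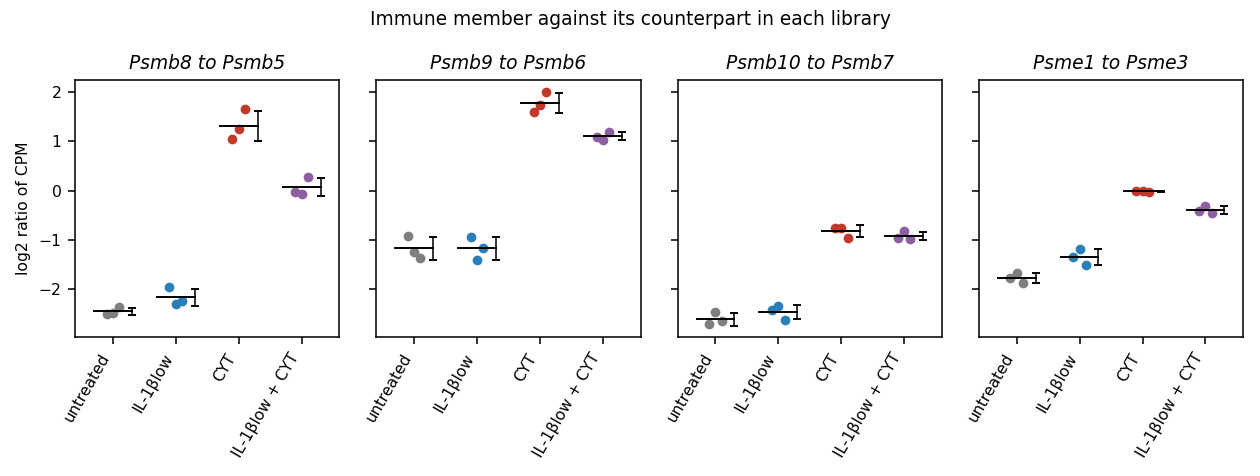
Log2 ratio of the CPM of an immune member to its counterpart in each of the 12 libraries, one panel per pair; points are libraries, the horizontal line is the group mean and the bar beside it 1 SD (n = 3). The CYT group mean is highest in every panel. IL-1βlow + CYT libraries lie below the CYT libraries without overlap in 3 of the 4 panels, the exception being Psmb10 to Psmb7.

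Genes that work with the proteasome were read from a list of 28 partners, of which 26 passed the filter on low counts. With CYT 8 of the 26 rose and 2 fell, beside 25.2% of all tested genes that rose and 24.5% that fell. Ubd (FAT10), a ubiquitin-like tag that sends proteins directly to the proteasome, went from 3.72 ± 0.516 CPM (SD, n = 3) to 167 ± 14.3 CPM, a log2 fold change of 5.48 (SE 0.16, edgeR-adjusted p = 6.4e-12), and was at 179 ± 9.59 CPM in IL-1βlow + CYT cells. Nub1, which speeds the degradation of such tagged proteins, had 95.9 ± 0.628 CPM without cytokines, 242 ± 61.3 CPM after CYT and 113 ± 5.44 CPM after IL-1βlow + CYT, a log2 fold change of -1.10 between the last 2 groups. Nfe2l1 (NRF1), the transcription factor that raises proteasome subunit genes when the proteasome is overloaded, had log2 fold changes of 1.03 with CYT and -0.88 between IL-1βlow + CYT and CYT, with 288 ± 6.22, 589 ± 25.6 and 319 ± 13.4 CPM in the 3 groups. Between IL-1βlow + CYT and CYT cells Ubd had a log2 fold change of 0.10 that did not pass (edgeR-adjusted p = 0.51), while Nub1 and Nfe2l1 were lower. Pomp, the maturation factor of the 20S core, did not pass in any comparison, with log2 fold changes from 0.03 to 0.32.

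Between IL-1βlow + CYT and CYT cells, 1 partner was higher (17.1% of all tested genes), the unfolding ATPase Vcp with a log2 fold change of 0.44, and 4 were lower (19.2%), among them Nub1, Nfe2l1 and the proteasome import factor Akirin2 (-0.35). Against untreated cells Ubd alone passed in IL-1βlow + CYT cells, as higher, where 8.24% of all tested genes were higher and 5.53% lower. With IL-1βlow alone none of the 26 passed, where 0.321% of all tested genes were higher and 0.182% lower.

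The 8 genes of the interferon-γ and MHC class I axis, a list likewise chosen with earlier results known, all rose with CYT (25.2% of all tested genes), with a median log2 fold change of 2.27. Tap1, which neighbours Psmb8 and Psmb9, went from 22.6 ± 1.39 to 196 ± 46.1 CPM, and the transcription factor Irf1 from 35.1 ± 1.14 to 273 ± 73.8 CPM. In IL-1βlow + CYT cells 6 of the 8 were lower than in CYT cells (19.2% of all tested genes), among them Tap1 with a log2 fold change of -1.39, Irf1 with -1.10, Tapbp with -0.80, Tap2 with -0.68 and B2m with -0.49, beside the -1.01 of Psmb8 and the -0.67 of Psmb9. Nlrc5, a coactivator of class I genes, and the peptidase Erap1 did not pass, with log2 fold changes of 0.04 and -0.01. With IL-1βlow alone only B2m, the light chain of class I molecules, rose (log2 fold change 0.59, edgeR-adjusted p = 6.0e-03), where 0.321% of all tested genes did.

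Replicates of the proteasome members lay close together, with a median SD within groups of 0.12 on the log2 scale over the 46 members and 0.14 over the 9880 genes expressed at least as highly as the lowest member. The members with the widest spread were Psmc6, with an SD of 0.34, Psme4 and Psma3. Psmc6, a 19S ATPase, was at 15.8 and 13.7 CPM in IL-1βlow replicates 1 and 2 and at 25.1 CPM in replicate 3, and at 18.4, 16.5 and 27.8 CPM in the IL-1βlow + CYT libraries. In both groups replicate 3 stood above the other two, as it did for Psme4 and Psma3, and none of the estimates for Psmc6 passed.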

How the data were processed

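RNA of the 12 INS-1E libraries was sequenced as polyA RNA from TruSeq libraries. Before deposit, the authors ran FastQC, rfastp for trimming, Rsubread for alignment (mRatBN7.2) and featureCounts. The authors deposited raw counts, as whole numbers for each gene symbol. Only their later steps were repeated here. Each library was matched to its group and replicate number by its label.

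Tests were run in R 4.3.3 (edgeR 4.0.16, DESeq2 1.42.0). The filter required a CPM over 1 in 2 or more libraries, and TMM set the scaling. All 12 libraries entered 1 quasi-likelihood fit (8 residual degrees of freedom, common biological coefficient of variation 0.123), and the 4 pairwise comparisons and the interaction were tested as contrasts, with Benjamini-Hochberg adjustment over 14324 genes. A member rose or fell at an adjusted p under 0.01. The study's fold change minimum (absolute log2 fold change above 0.6 for IL-1βlow against untreated cells, above 1 elsewhere) gave a second count. The study used edgeR's exactTest, an alternative here. Scripts were tested on simulated data. Reads carry no molecular identifiers, so the depth bounds counting error only. Within groups, no pair of libraries matched within counting noise (chi-square over its degrees of freedom 7.11 to 27.5). This does not show that the cultures were independent. The labels name biological replicates, and each library was taken as 1 replicate.

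The genes named were the 5 immune members, their counterparts Psmb5, Psmb6, Psmb7 and Psme3, and in each comparison the 3 largest rises and falls among the other members that passed; Psma1, Psmc6, Psmd5, Psmd9, Psmd4, Psmc2, Psma2 and members listed by name were added after their values were seen, as were the named partner and axis genes. The members, the lists and the comparisons were chosen with earlier results of these data known. Coordinates are those of the RefSeq promoter table (GRCr8), not of the build used for the counts. Alternatives were other scalings, DESeq2, exactTest, other filters, only the 2 groups compared, the replicate number as a block, an adjusted p under 0.05, a pseudocount for ratios and each library left out. Some members of the partner and class I lists enter the counts but are not reported here by name.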

Additional observations from a re-analysis of the deposited data

Results flagged for a closer look

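The response to CYT differed between cells with and without IL-1βlow for 8 proteasome members, by the interaction term of edgeR's quasi-likelihood fit (adjusted p under 0.01). The difference of the log2 fold changes was -1.35 for Psmb8, -1.10 for Psmb9, -0.67 for Psmf1 and -0.59 for Psme1, all with a smaller rise after IL-1βlow. It was 1.08 for Psma3, 0.63 for Psmd1, 0.44 for Psmd12 and 0.43 for Psma1, where the log2 fold change with CYT was below 0 in cells without IL-1βlow. Of all tested genes, 12.5% passed with a negative difference and 10.1% with a positive one. Of the 8, Psmb8, Psmb9 and Psmf1 passed with any 1 library left out. Groups of 3 libraries were too small for a test of single libraries that stand apart.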

How the results depend on the processing

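The 5 immune members rose with CYT under every alternative tried. Other counts of members moved by over 1.5 times. For falls with CYT (5), an adjusted p under 0.05 gave 9, the replicate block 8, and single libraries left out 2 to 6. For IL-1βlow against untreated cells, 1 member (Psme1) was higher and 1 (Psme4) lower without a low-count filter, and 1 (Psme1) was higher with the replicate block. For members higher in IL-1βlow + CYT than in CYT (9), fitting only these 2 groups gave 5, and left-out libraries 5 to 11. For those lower (3), an adjusted p under 0.05 gave 6, DESeq2 5, the block 6, and left-out libraries 3 to 5. Against untreated cells (7 higher), an adjusted p under 0.05 gave 14, DESeq2 11, the block 15, and left-out libraries 6 to 11 (and 0 to 1 lower). For positive interactions (4), an adjusted p under 0.05 gave 9, the block 8, and left-out libraries 0 to 7.

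Values near 0 changed sign. The log2 ratio of Psmb9 to Psmb6 with IL-1βlow went from -0.11 to 0.13 over left-out libraries. Psme3 with CYT was at 0.0296 with RLE scaling, 0.0295 in DESeq2, 0.0308 with only 2 groups, 0.0692 without a filter and -0.0273 to 0.0579 over left-out libraries, and the Psme2 interaction at -0.175 to 0.0142. The causes were not tested. Other scalings moved the median of all genes by at most 0.03. Same-numbered libraries correlated at 0.19 on average (-0.19 to 0.52 over 18 pairs, 13 above 0.1), and libraries of other numbers at -0.09. Of 12 libraries, 9 correlated best with their own number. The labels do not say what a number shares between groups. The main fit therefore did not take the numbers as pairs, and the block is given as an alternative. With the block, Psmb10 passed as lower in IL-1βlow + CYT than in CYT (log2 fold change -0.29) and in the interaction (-0.51).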
